A study of Mus musculus with 4 samples.

Results

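The genes described here encode the core machinery of programmed cell death: 37 members of the Bcl2 family, the caspases and their inhibitors, and the death receptors with their adaptors. They were taken by name, as 37 of the 20660 genes that the array names through RefSeq accessions. The list was chosen with earlier results of these data known. Of the 37, 32 were well above background, as flagged by the scanner software, on all 4 arrays, and 5 were so on none (Bik, Bcl2l11, Birc3, Tnf and Tnfrsf1b).

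Apoptosis runs along 2 routes that meet at the caspases, a family of proteases. In the mitochondrial route, BH3-only proteins sense damage or loss of trophic support and release the effectors Bax and Bak1 from the anti-apoptotic Bcl2 proteins, after which cytochrome c leaves the mitochondrion and assembles with Apaf1 and caspase-9. In the receptor route, ligands such as Fas ligand and TNF bind receptors that recruit Fadd and caspase-8. Many neurons and progenitors are removed in this way around birth, so transcripts of this machinery are normally present in newborn brain.

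The study asked how exposure to titanium dioxide nanoparticles before birth alters gene expression in the offspring brain. Pregnant C57BL/6J mice received the TiO2-H dose (25 μL of suspension at 4 μg/μL into the trachea, which is 100 μg for each mouse) or, as Sham, the vehicle from which the particles had been removed. The exposure day was given as gestational day 10.5, while a label of every sample, Sham and TiO2-H alike, gave day 14. Some labels wrote the concentration per litre. Whole brains were taken at postnatal day 1, and RNA of 2 offspring per dam was pooled by sex, from 5 Sham dams or 6 TiO2-H dams.

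Each of the 4 pools (males and females of Sham, males and females of TiO2-H) was hybridised to 1 single-colour array, where a brighter spot means more of its mRNA. With each group a lone array, males and females could not be tested separately, and so few arrays limit the precision. The Sham arrays occupied row 1 and the TiO2-H arrays row 2 of 1 slide, so exposure, litters and slide row cannot be told apart. Between 56.2% and 61.2% of spots were well above background, and none was saturated. Signals were divided by the 75th percentile of their array, and the log2 of this ratio is called the log2 scaled signal.

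The sex labels of the TiO2-H arrays went against the sex-linked transcripts. Xist, which is made from the inactive X chromosome of females, gave signals of 17.9 (male) and 275.6 (female) in Sham, and 346.6 (labelled male) and 5.36 (labelled female) in TiO2-H. The Y-linked Eif2s3y gave 3519, 419.5, 6.40 and 4345 in the same order, so that the array labelled TiO2-H female carried the most of it and the Sham female array carried some. The comparisons below therefore rest on the pair of TiO2-H arrays against the pair of Sham arrays, which does not use the sex labels. Fold changes within a label are also given across labels. The exposure labels could not be checked in this way and were taken as given.

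None of the 32 measured genes reached the 1.5-fold or 0.67-fold threshold of the study's methods on either pair of arrays. On the arrays labelled male the fold changes, TiO2-H over Sham, ran from 0.688 (Fas) to 1.24 (Casp8), and on the arrays labelled female from 0.773 (Fas) to 1.197 (Aifm1). Among all genes flagged as well above background on 1 or both arrays of a pair, 2.06% were higher and 1.86% lower by that threshold on the arrays labelled male, and 1.59% and 2.01% on the arrays labelled female. When each TiO2-H array was set against the Sham array of the other label, 0 of the 32 passed as well. Fas came just short of the lower threshold, with a log2 difference of -0.573 for the array labelled TiO2-H male over Sham female. Of all genes, 1.68% were higher and 1.98% lower with the array labelled TiO2-H female over Sham male, and 1.96% and 1.73% with the array labelled TiO2-H male over Sham female. Quantile normalization brought Fas past the lower threshold on the arrays labelled male, as the only measured gene to do so.

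With the arrays compared by exposure, 8 of the 32 genes had both TiO2-H arrays above both Sham arrays and 11 had both below. These are 25.0% and 34.4% of the measured genes, beside 28.5% and 27.1% of all 16163 genes well above background on at least 1 array. The 8 above were Birc6, Casp8, Aifm1, Apaf1, Casp1, Xiap, Fadd and Cflar, and the 11 below were Fas, Endog, Bax, Birc2, Htra2, Bid, Casp6, Bcl2l2, Tnfrsf1a, Bad and Hrk. The split depends on the scaling: without it, all genes were shifted upward on the TiO2-H arrays by a median of 0.12 on the log2 scale, and the counts became 19 above (59.4%) and 1 below, beside 61.3% and 6.38% of all genes. Differences are thus given relative to the 75th percentile of each array.

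The median difference over the 32 genes, as the mean log2 scaled signal of TiO2-H minus that of Sham, was -0.016 (-0.012 without the Sham female array and -0.029 without the Sham male array), and that of all genes tested was 0.004. The size of the difference, whatever its sign, had a median of 0.096 over the 32 genes and 0.080 over the genes measured on all 4 arrays. The gap between both Sham arrays had a median size of 0.057 over the 32 genes, and that between both TiO2-H arrays one of 0.050. In these whole brains, fewer cells of a type and less RNA per cell cannot be told apart.

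With limma across all 16163 genes, 0 genes had an adjusted p under 0.05 (0.0%), the 32 included. The lowest adjusted p among the 32 was 0.258, for Fas, Birc6 and Apaf1. At an unadjusted p under 0.05, limma listed 9 of the 32 (28.1%) and 2809 of all genes (17.4%). The 9 were Fas, Birc6, Apaf1, Casp8, Aifm1, Xiap, Endog, Bid and Htra2, of which 5 were higher and 4 lower on the TiO2-H arrays. The smallest p that an exact permutation of 2 against 2 arrays allows is 0.33. Nothing in the sources said that the pools of a group were made more than once, so these p-values measure the spread between pools of different sex labels. The 2 pools of an exposure came from the same dams. Spread between litters is therefore not measured by these p-values or by the standard errors given below.

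**Figure D1:**
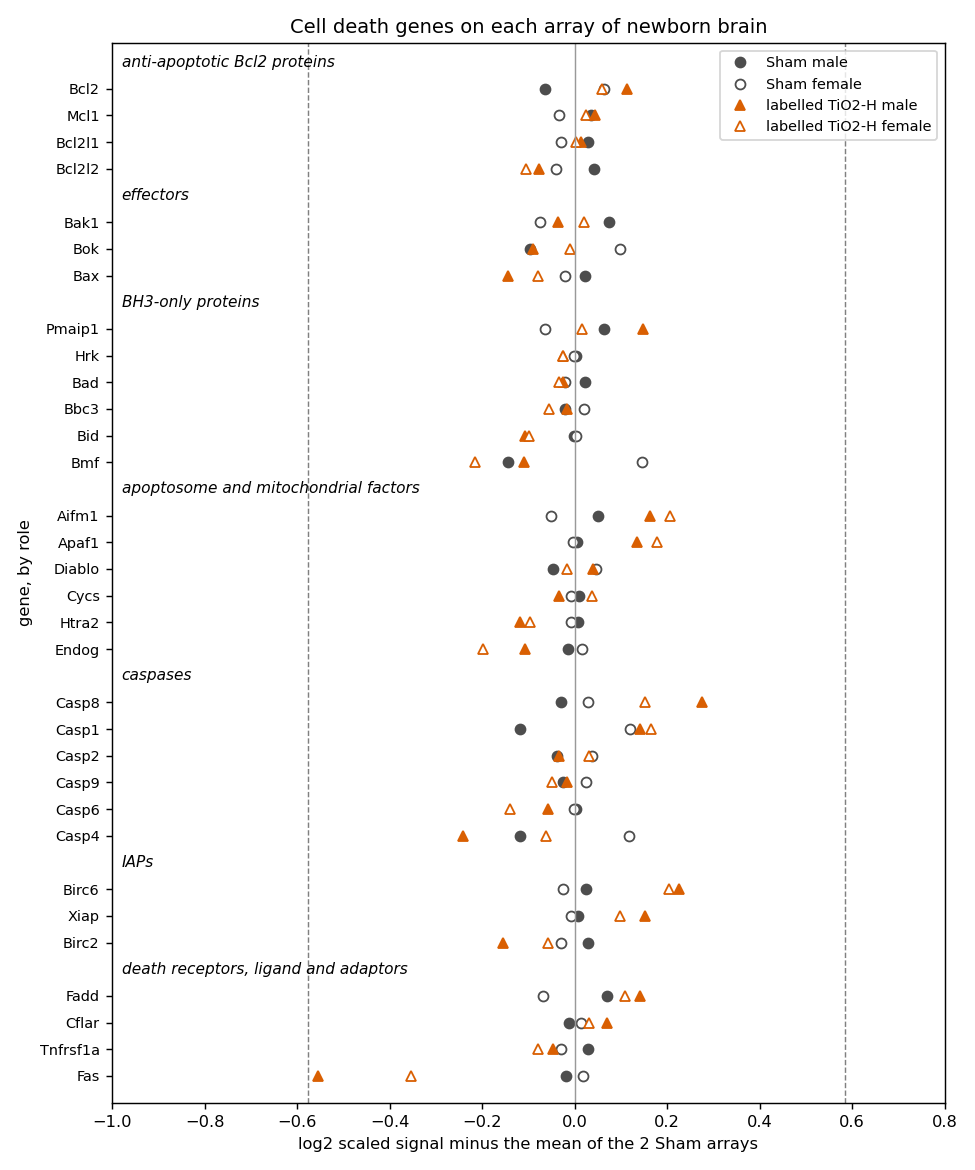
Log2 scaled signal of the 32 measured genes on each array, less the mean of the 2 Sham arrays (horizontal axis), with genes ordered by role and then by difference (vertical axis); dashed lines mark 1.5-fold and 0.67-fold. No symbol lies past a dashed line. The TiO2-H symbols of Fas lie farthest from the Sham mean, at -0.56 and -0.35, and those of every other gene lie closer to it.

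Among the 32, 3 genes had no overlap between exposures and a difference of at least 0.2 in size: Birc6 and Casp8 were higher on the TiO2-H arrays, and Fas was lower. These are 6.25% and 3.12% of the measured genes, and the same rule took 8.35% of all tested genes upward and 5.69% downward. Because they carry the largest differences, the 250 bases before their transcription starts are shown, from RefSeq on the GRCm38.p6 build, 5′ to 3′ on the gene's own strand (plus for each of them), with every CG dinucleotide in capitals. CG dinucleotides are the sites of DNA methylation, and stretches dense in them mark CpG island promoters.

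Fas, chr19:34290409-34290658: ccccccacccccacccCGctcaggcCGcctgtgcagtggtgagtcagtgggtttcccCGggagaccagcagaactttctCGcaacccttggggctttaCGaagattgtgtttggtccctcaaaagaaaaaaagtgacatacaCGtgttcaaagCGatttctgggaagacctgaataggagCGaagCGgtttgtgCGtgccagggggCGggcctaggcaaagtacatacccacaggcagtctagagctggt
Birc6, chr17:74528045-74528294: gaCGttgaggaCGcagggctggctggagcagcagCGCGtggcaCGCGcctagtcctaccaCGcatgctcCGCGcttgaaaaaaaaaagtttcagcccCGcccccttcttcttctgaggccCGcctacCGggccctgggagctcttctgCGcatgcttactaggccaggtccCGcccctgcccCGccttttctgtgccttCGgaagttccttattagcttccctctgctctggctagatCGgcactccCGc
Casp8, chr1:58802252-58802501: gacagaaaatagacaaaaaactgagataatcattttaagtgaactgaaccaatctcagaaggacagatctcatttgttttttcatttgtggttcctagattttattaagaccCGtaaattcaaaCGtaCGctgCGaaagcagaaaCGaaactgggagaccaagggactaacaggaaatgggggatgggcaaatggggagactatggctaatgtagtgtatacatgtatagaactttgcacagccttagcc

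The window of Birc6 held 18 CG dinucleotides and that of Fas 11, while that of Casp8 held 5. The median was 13 over the 46 starts that the promoter table lists for 34 of the 37 genes (all but Bik, Htra2 and Pmaip1), and 6 over all 32851 starts of the table. Taking for each gene its start with the most, 25 of the 34 (73.5%) held at least 10, as did 40.2% of all genes in the table. The GC box GGGCGG, the letters bound by Sp1, was found on either strand in 27 of the 46 windows (58.7%) and in 32.7% of all windows, including those of Fas and Birc6 and not that of Casp8. Casp1 and Casp4 held at most 3 CG dinucleotides, whereas Apaf1 held 42. These counts describe the letters of the reference only, and no methylation was measured on these arrays.

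The anti-apoptotic proteins keep the effectors in check at the mitochondrial membrane. All 4 were measured, and their differences lay between -0.092 (Bcl2l2) and 0.086 (Bcl2), with a median of 0.021. Bcl2l1, which encodes Bcl-xL, the main survival protein of newborn neurons, had the brightest probe of the group. Its signals were 26963 (male) and 25397 (female) in Sham, and 28548 (labelled male) and 28454 (labelled female) in TiO2-H, and after scaling the 4 arrays overlapped, with a difference of 0.01 ± 0.04 (SE, 2 arrays against 2). Bcl2l2 (Bcl-w) was the 1 member of the group without overlap, at -0.09 ± 0.05. The early-response survival gene Mcl1 differed by 0.03 ± 0.04 and Bcl2 by 0.09 ± 0.06, each with overlapping arrays.

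The effectors Bax, Bak1 and Bok perforate the outer mitochondrial membrane. Bax, the effector on which neurons chiefly depend, gave signals of 10626 (male) and 10119 (female) in Sham, and 10142 (labelled male) and 10645 (labelled female) in TiO2-H. Before scaling these overlapped, and after scaling both TiO2-H arrays lay below both Sham arrays, with a difference of -0.11 ± 0.05, a fold of 0.926 and an adjusted p of 0.320 in limma. Without scaling the Bax difference was 0.003. Bak1 and Bok overlapped, with differences of -0.01 ± 0.07 and -0.05 ± 0.09, and the Sham arrays alone were 0.15 and 0.20 apart for them.

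Of the 8 BH3-only proteins, which report stress to the other family members, 6 were measured. None had both TiO2-H arrays above the Sham arrays and 3 (Bid, Bad and Hrk) had both below, with a group median of -0.033. Bad, which growth factor signalling holds inactive by phosphorylation, had the brightest probe. Its signals were 11641 (male) and 11075 (female) in Sham, and 12054 (labelled male) and 12031 (labelled female) in TiO2-H, a scaled difference of -0.03 ± 0.04 with groups separated by less than 0.01. Bid, which caspase-8 cleaves to link the receptor route to the mitochondrion, differed by -0.10 ± 0.03, and its arrays within an exposure lay less than 0.01 apart. Bmf had the widest spread between Sham arrays among the measured genes, 0.29, and its difference of -0.16 ± 0.12 lay inside it (-0.31 without the Sham male array, -0.02 without the Sham female array and -0.10 with normexp). The p53 targets Bbc3 (Puma) and Pmaip1 (Noxa) differed by -0.04 ± 0.04 and 0.08 ± 0.08 with overlap, and the neuronal Hrk by -0.03 ± 0.03. Bik and Bcl2l11 (Bim) were not well above background on any array, with signals between 6.67 and 25.5, so no level of theirs could be compared.

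The apoptosome and the mitochondrial factors act downstream of the effectors, and all 6 were measured. Apaf1, the scaffold on which caspase-9 is activated, was 1.12-fold (difference 0.16 ± 0.04), with Sham arrays 0.01 and TiO2-H arrays 0.04 apart. With the normexp background correction, which models signal and background jointly, the Apaf1 difference was 0.07. Aifm1, a flavoprotein of the inner mitochondrial membrane that can move to the nucleus in caspase-independent death, was 1.14-fold (0.19 ± 0.05). On the other side, the mitochondrial nuclease Endog was 0.900-fold (-0.15 ± 0.05) and the protease Htra2, which antagonises the IAPs, 0.929-fold (-0.11 ± 0.04). A second Htra2 probe gave -0.02. In limma the adjusted p was 0.258 for Apaf1, 0.265 for Aifm1, 0.280 for Endog and 0.283 for Htra2.

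Cycs, which encodes the cytochrome c of respiration and of the apoptosome, had the brightest probe of these 6. Its signals were 23850 (male) and 23118 (female) in Sham, and 24756 (labelled male) and 26121 (labelled female) in TiO2-H. The scaled values overlapped fully, with a difference of 0.001 ± 0.04, and those of the IAP antagonist Diablo overlapped with 0.01 ± 0.05. This group thus held members on both sides, with a median difference of 0.006.

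Caspase-8 is the initiator of the receptor route, and Casp8 had the largest difference of the 6 caspases. It gave signals of 136.0 (male) and 139.0 (female) in Sham, and 180.0 (labelled male) and 165.8 (labelled female) in TiO2-H. Both TiO2-H arrays lay above both Sham arrays, at 1.16-fold (0.21 ± 0.06, adjusted p = 0.264 in limma), and 9.65% of all tested genes were as high or higher. Across sex labels the Casp8 difference was 0.18 and 0.25. The 2 TiO2-H arrays were 0.12 apart, and with 1 array left out the difference ran from 0.15 to 0.28.

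Casp9, the initiator of the mitochondrial route, had the brightest caspase probe, with signals of 5226 (male) and 5306 (female) in Sham, and 5630 (labelled male) and 5519 (labelled female) in TiO2-H. The scaled values overlapped, and the difference was -0.03 ± 0.04. Casp2, an initiator linked to DNA damage, differed by -0.002 ± 0.05, and Casp6, which cleaves lamins, by -0.10 ± 0.05 without overlap (-0.06 without the array labelled TiO2-H female). The inflammatory caspases went apart: Casp1, which processes interleukin-1β, was at 0.15 ± 0.10 and Casp4 (also called caspase-11) at -0.15 ± 0.12. For each of these 2 genes the Sham arrays alone were 0.24 apart, which is more than the difference between exposures. The Casp1 difference was 0.04 without the Sham male array, 0.27 without the Sham female array and 0.07 with normexp, and that of Casp4 ran from -0.27 to -0.04 with 1 array left out.

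The IAPs bind and ubiquitinate caspases and their antagonists, and 3 of the 4 were measured. Birc6, a very large ubiquitin-conjugating IAP also known as BRUCE or Apollon, gave signals of 1353 (male) and 1283 (female) in Sham, and 1665 (labelled male) and 1647 (labelled female) in TiO2-H. Both TiO2-H arrays lay above both Sham arrays before and after scaling, at 1.16-fold (0.22 ± 0.04, adjusted p = 0.258 in limma), with Sham arrays 0.05 and TiO2-H arrays 0.02 apart. As high or higher were 9.58% of all tested genes. With 1 array left out the difference ran from 0.19 to 0.24, and across sex labels it was 0.18 and 0.25.

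Xiap, a direct inhibitor of caspase-9, had the brightest IAP probe. Its signals of 5319 (male) and 5171 (female) in Sham stood against 6302 (labelled male) and 6088 (labelled female) in TiO2-H. The scaled values did not overlap, at 1.09-fold (0.13 ± 0.04, adjusted p = 0.278 in limma). Birc2 (cIAP1), a ubiquitin ligase of TNF receptor signalling, lay on the other side at 0.929-fold (-0.11 ± 0.05, or -0.06 without the array labelled TiO2-H male). Its paralogue Birc3 gave signals of 12.9 to 23.8, all too dim to compare.

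Fas, the receptor of Fas ligand, had the largest difference of all measured members. It gave signals of 68.6 (male) and 69.0 (female) in Sham, and 50.6 (labelled male) and 58.4 (labelled female) in TiO2-H. Both TiO2-H arrays lay below both Sham arrays, at 0.730-fold (-0.46 ± 0.09, adjusted p = 0.258 in limma), and 2.72% of all tested genes were as low or lower. Across sex labels the difference was -0.34 and -0.57.

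These Fas signals are dim. The lowest signal well above background was between 23.3 and 31.7 on the 4 arrays, and the mean error that the scanner software gave for a Fas spot was between 8.07 and 10.2. The probe was spotted 2 times on each array, and every spot was well above background. The spots ran from 66.3 to 71.1 on the Sham male array and from 64.2 to 74.1 on the Sham female array. They ran from 47.2 to 54.3 on the array labelled TiO2-H male and from 49.9 to 68.3 on the array labelled TiO2-H female, where the higher spot reached the range of the Sham arrays. Among probes spotted 10 times with signals under 100, spots of 1 array had a median SD of 0.16 to 0.18 on the log2 scale. With normexp the Fas difference was -0.18, and with 1 array left out it ran from -0.56 to -0.35.

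Tnfrsf1a, the main receptor of TNF, had the brightest probe of the receptor group, with signals of 1266 (male) and 1194 (female) in Sham, and 1285 (labelled male) and 1263 (labelled female) in TiO2-H. Its scaled values did not overlap, though the difference was -0.06 ± 0.04. The adaptor Fadd, which couples Fas to caspase-8, was at 0.12 ± 0.06, and Cflar (c-FLIP), which competes with caspase-8 for Fadd, at 0.05 ± 0.04, both without overlap. For Fadd the difference was 0.06 without the Sham female array, 0.19 without the Sham male array and 0 with normexp. Tnf itself gave signals of 6.35 to 7.97 and the second receptor Tnfrsf1b signals of 12.1 to 30.2, none well above background.

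**Figure D2:**
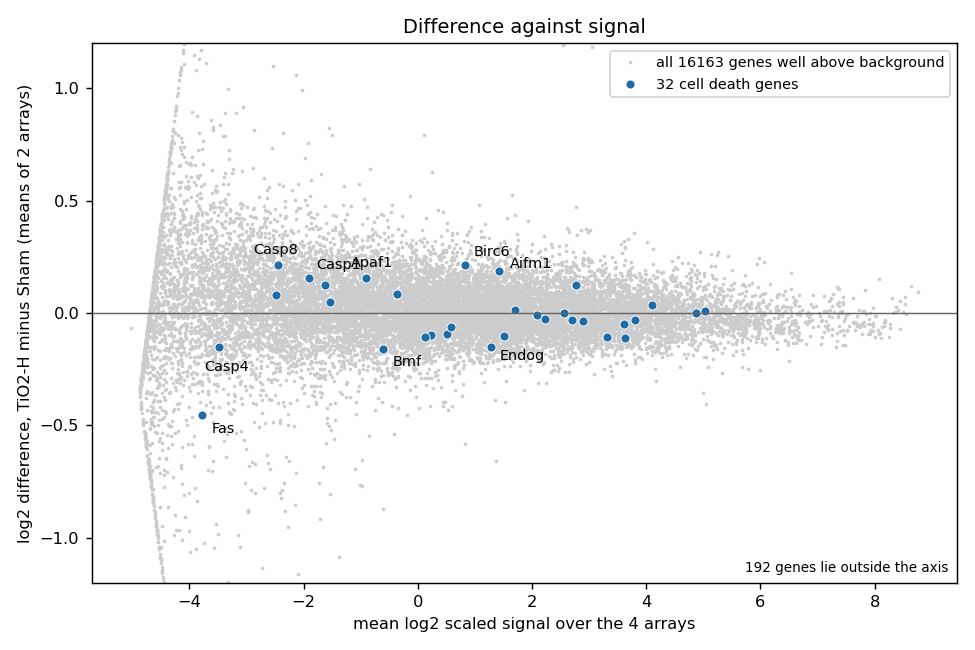
Difference between exposures (log2 scaled signal, mean of 2 TiO2-H minus mean of 2 Sham arrays, vertical axis) against the mean log2 scaled signal over the 4 arrays (horizontal axis), for the 32 measured cell death genes (blue) and all 16163 genes well above background on at least 1 array (grey); 192 genes lie outside the vertical axis. The spread of the grey points widens toward low signals, where Fas lies, and all blue points lie among the grey ones.

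By role, the median difference was 0.126 for the IAPs, 0.021 for the anti-apoptotic proteins, 0.006 for the mitochondrial factors, -0.006 for the receptors and adaptors, -0.017 for the caspases, -0.033 for the BH3-only proteins and -0.051 for the effectors. Inhibitors and promoters of death stood on both sides of 0: among genes without overlap, Birc6, Xiap and Cflar (inhibitors) and Casp8, Apaf1, Aifm1, Casp1 and Fadd (promoters) were higher on the TiO2-H arrays. Bcl2l2 and Birc2 (inhibitors) and Fas, Bax, Bid, Bad, Hrk, Htra2, Endog, Casp6 and Tnfrsf1a (promoters) were lower. Each group holds between 3 and 6 measured genes, and no test was made of the groups.

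For 10 of the 32 genes the array carried more than 1 probe, and these show how far a value depends on the probe. Bcl2l1 differed by 0.01 with its brightest probe and by -0.22 with the other, which gave signals of 379.7 (male) and 410.5 (female) in Sham, and 352.1 (labelled male) and 382.9 (labelled female) in TiO2-H. The brightest Casp4 probe was at -0.15 and the other, also dim, at 0.14. The second Bcl2l2 probe gave 69.3, 65.0, 64.4 and 169.6, so that the array labelled TiO2-H female alone stood out, while the brightest probe showed nothing of it. Tnfrsf1a, at -0.06 with its brightest probe, was at 0.004 with a probe spotted 10 times on each array. Htra2 was at -0.107 with its brightest probe and at -0.017 with the other, whereas Bad was at -0.03 and -0.142. Averaging the probes of a gene turned the sign of the difference of Bcl2l1, Bcl2l2 and Cflar. Fas, Casp8 and Birc6 had 1 probe each, so this check could not be made for them.

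**Figure D3:**
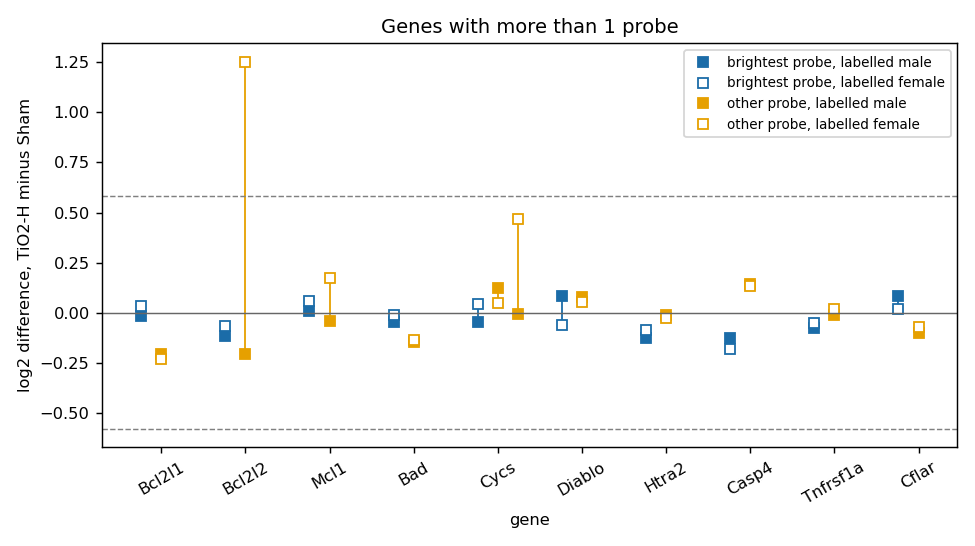
Log2 difference, TiO2-H minus Sham (vertical axis), of every probe well above background on all 4 arrays, for the 10 genes with more than 1 probe (horizontal axis); a line joins the arrays labelled male (filled) and female (open), and dashed lines mark 1.5-fold and 0.67-fold. Blue squares, the brightest probe, lie near 0. Of the orange squares, the other probes, that of Bcl2l2 on the arrays labelled female lies past the upper dashed line.

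Other genes of the pathway were followed by counts. Of 68 listed, 67 had a probe and 60 were well above background on at least 1 array. Both TiO2-H arrays lay above both Sham arrays for 16 of the 60 and below for 15, with a median difference of 0.012. Of all tested genes, 28.5% lay above and 27.1% below. In limma 0 of the 60 had an adjusted p under 0.05, and 7 had an unadjusted one, as did 17.4% of all tested genes. Trp53, which encodes p53, was at 0.01 ± 0.05.

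A difference of at least 0.2 in size without overlap was seen upward in 8.35% of all tested genes and downward in 5.69%. Of the 60 other genes, 4 met this rule, 2 in each direction. Tradd, the adaptor of TNF receptor 1, was the highest at 0.27 ± 0.10, with signals of 986.4 and 993.6 in Sham and 1178 (labelled male) and 1410 (labelled female) in TiO2-H. Mdm4, an inhibitor of p53, gave 301.1 (male) and 268.5 (female) in Sham, and 351.4 (labelled male) and 373.4 (labelled female) in TiO2-H, a difference of 0.24 ± 0.07 (adjusted p = 0.268 in limma). Sesn1, a p53 target, gave 3978 and 3971 in Sham and 3654 and 3691 in TiO2-H in that order, a difference of -0.23 ± 0.04 (adjusted p = 0.258 in limma). The dim Birc7 gave 39.0 and 38.2 in Sham and 41.4 and 28.4 in TiO2-H, at -0.28 ± 0.21 after scaling. Past the fold threshold, Tnfrsf25 and Naip6 were each set by a single array: Tnfrsf25 gave 111.2 and 704.7 in Sham and 129.6 and 141.4 in TiO2-H, and Naip6 gave 9.10 and 14.1 in Sham and 7.04 and 117.7 in TiO2-H.

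Markers of neurons (6 of 6) and of neural progenitors (6 of 6) were well above background on every array. Of the neuronal ones 3 were higher and 1 lower without overlap on the TiO2-H arrays, and of the progenitor ones 5 were higher. Beside these counts and those of the lists below, 28.5% of all tested genes were higher and 27.1% lower by that rule. No test was made of the lists. Of 8 microglial markers, 5 were higher and 2 (C1qa and C1qb) lower without overlap on the TiO2-H arrays, and Tyrobp overlapped. The summed scaled signal of the 8 was 42.6 to 44.3 on the Sham arrays and 47.0 to 50.1 on the TiO2-H arrays. Most of that sum was Itgam, at 25.3 and 27.6 in Sham and 29.2 and 32.1 in TiO2-H, and the other 7 summed to 16.7 to 17.3 and 17.7 to 18.0. Microglia are a known source of Casp1 in brain, and the part of these cells in the Casp1 value was not tested. The 2 measured erythroid markers, Hba-a1 and Alas2, were lower, with summed scaled signals of 60.0 to 62.5 and 51.4 to 51.7. Of 5 endothelial markers 2 were higher and 1 lower, all 4 of meninges and fibroblasts were higher, and of 4 oligodendrocyte precursor markers 3 were higher. Among choroid plexus markers (3 of 3 measured), only Ttr was lower without overlap, while Kl and Folr1 overlapped. The sum of the 3, most of it Ttr, was 82.5 to 84.9 on the Sham and 80.0 to 81.2 on the TiO2-H arrays. Of the lymphocyte markers, Cd3g and Cd79a were not well above background on any array.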

How the data were processed

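The authors deposited, for each array, the scanner output and a table of values, all as intensity made with Agilent Feature Extraction (version 10.10.1.1), which subtracts background and detrends within an array without scaling between arrays. Both held the same processed signal. This signal was divided by each array's 75th percentile (taken across the 59305 spots that are no controls) and put on the log2 scale. Outlier-flagged spots were dropped, repeated spots were averaged by probe, and each gene was read from its brightest probe over all arrays. A dim value, not well above background, was raised to the array's lowest signal that was, unless already higher. Of 22765 RefSeq accessions, 94.3% matched a gene table of assembly GRCm38.p6. Genes well above background on at least 1 array were tested with limma 3.58.1 (R 4.3.3), TiO2-H against Sham without a sex term, with Benjamini-Hochberg adjustment over 16163 genes. Steps were tested on simulated data. Python 3.11.15, numpy 2.4.6 and pandas 2.3.3 were used.

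The genes, the other lists and the tests were chosen with earlier results of these data known. Every member is accounted for. All 4 signals are given for genes past 1.5-fold or 0.67-fold, without overlap and at least 0.2 apart on the log2 scale, or with the brightest probe of their role, and further values of single members were added after they were seen. The alternatives were no scaling, quantile normalization, normexp (offset 50, on median signals, since mean signals were not used here), the deposited table, other filters and floors, the mean of a gene's probes, flagged spots kept, a 2-fold threshold, sex terms, and each array left out. The CpG island arrays of the study were not analysed here. 1 gene of the other lists is not reported here by name.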

Additional observations from a re-analysis of the deposited data

How the results depend on the processing

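In 448 recomputations of the 32 differences under the alternatives that keep a scaling, 19 turned their sign, and the largest difference to turn was 0.092 in size (Bcl2l2). Many of the 448 could not turn. The deposited table held the same signal, and the other filters, the floor and the balanced sex terms leave these 32 differences unchanged. Leaving out the scaling adds nearly the same amount to every gene, so the 14 signs it turned follow from that shift. Fas, Casp8 and Birc6, which were picked for large differences without overlap, kept their sign in all settings. Leaving out 1 array could not turn it, since their arrays do not overlap. With no filter the median was -0.032, but it then took in the 5 genes not well above background on any array. Those 5 lay at or near the floors of the arrays, with differences of -0.359 (Bik, Bcl2l11, Birc3 and Tnf) and -0.342 (Tnfrsf1b). The count of genes with a limma adjusted p under 0.05 was 0 in every fit, with lowest adjusted p for Fas, Casp8 and Birc6 of 0.114, 0.097 and 0.097 and highest of 0.422, 0.474 and 0.465. Without scaling, 19 genes lay above and 1 below, and the median became 0.098. The differences turned to 0.023 (Bcl2l2), 0.003 (Bax), 0.107 (Bak1), 0.063 (Bok), 0.011 (Bid), 0.085 (Bad), 0.079 (Bbc3), 0.089 (Hrk), 0.008 (Htra2), 0.112 (Casp2), 0.015 (Casp6), 0.082 (Casp9), 0.008 (Birc2) and 0.051 (Tnfrsf1a). The median of all genes was 0.119 without scaling and 0.004 with it. Quantile normalization put 1 gene, Fas, under 0.67-fold on the arrays labelled male. With normexp the differences turned to -0.03 (Bcl2l1), 0.008 (Bak1), 0.002 (Bok), -0.014 (Diablo) and 0.006 (Casp2), and the cause was not tested. With the mean of a gene's probes they turned to -0.105 (Bcl2l1), 0.216 (Bcl2l2) and -0.113 (Cflar), and 1 gene, Bcl2l2, passed 1.5-fold on the arrays labelled female through its second probe. With 1 array left out, the ranges that crossed 0 were -0.081 to 0.067 for Bak1, -0.034 to 0.058 for Diablo, -0.021 to 0.038 for Bcl2l1, -0.001 to 0.068 for Mcl1, -0.149 to 0.047 for Bok, -0.035 to 0.037 for Cycs and -0.04 to 0.036 for Casp2. With sex as a term in limma, as labelled or crossed within TiO2-H, which leaves 1 residual degree of freedom, the count of genes with an adjusted p under 0.05 was also 0.

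With 1 array per group, differences of the size of the spread between arrays of an exposure could not be told from it, and slide row, litters and exposure cannot be separated. Dim probes, Fas among them, had the widest spread between spots.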
